A study of Rattus norvegicus with 20 samples.

Results

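The nuclear genes of oxidative phosphorylation were followed, complex by complex, in cultured rat neural progenitors and in the cells derived from them. A gene was taken where a probe set carried a single rat gene symbol that starts with Nduf, Sdha to Sdhd, Uqcr, Cox4 to Cox8 or Atp5, or is Cyc1 or Cycs. This gave 56 genes of the 4736 with a single-symbol probe set. They lay on 102 of the 8740 probe sets tested, and 28 of them had several. Each gene was represented by its brightest probe set, the one with the highest mean log2 intensity over all arrays.

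The 56 genes held 26 subunits of complex I, 1 of complex II, 4 of complex III, 11 of complex IV and 9 of complex V. The remaining 5 were 4 assembly or inhibitor genes, which were described apart, and the pseudogene Cox6c-ps1. Cytochrome c itself, Cycs, had no single-symbol probe set, and neither did any of the 13 genes encoded in mitochondrial DNA. A further 7 probe sets named several genes, of which at least 1 met the rule, and were not used. Complex II was represented by Sdha alone, so this complex could be described by a single gene only.

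RNA of 4 groups was measured on 20 Affymetrix rat arrays. Progenitors grown at high density (HD) had 6 arrays of 3 cultures. Low-density progenitors that the labels call CCg, an abbreviation they do not expand, had 4 arrays of 3 cultures (LD). The other groups were LD cells given FBS to obtain astrocytes (FBS, 6 arrays of 4 cultures) and LD cells given RA/Fsk to obtain neurons (RA/Fsk, 4 arrays of 4 cultures). FBS, RA and Fsk usually stand for fetal bovine serum, retinoic acid and forskolin. Strain, age, dose and time are not given in the labels. Within a group, arrays labelled with one number are called a culture here, and its value is their mean on the log2 scale. The labels do not say that the numbers stand for separate cultures or animals, so p-values reflect only the spread between these samples, which may be technical.

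Oxidative phosphorylation takes electrons from NADH at complex I and from succinate at complex II, passes them through complex III and cytochrome c to oxygen at complex IV, and uses the resulting proton gradient at complex V, the ATP synthase. Most subunits are encoded in the nucleus and imported into the mitochondrion, while a small catalytic core is encoded by mitochondrial DNA. Astrocytes and neural progenitors are known for a high rate of glycolysis, and neurons for a strong reliance on respiration.

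The deposited values were linear intensities that looked scaled to a common trimmed mean, and the number of arrays limits the precision. Arrays of 1 culture correlated at 0.951 to 0.975, arrays of different cultures of a group at 0.94 to 0.979, and arrays of different groups at 0.877 to 0.96. The cell type labels were checked against marker genes. The summed intensity of 7 astrocyte markers was 2003 to 2612 in LD, 3801 to 4999 in HD and 5986 to 8008 with FBS. It was also high with RA/Fsk, at 7994 to 9350. Of the 7, 4 rose and none fell with FBS against LD, and 2 had negative differences. With RA/Fsk 3 of the 7 rose and none fell, with a median difference of 0.2 on the log2 scale. The summed intensity of 6 neuron markers was 656 to 749 in LD and 380 to 584 with RA/Fsk, and none of the 6 rose there, while Gap43, a growth cone protein, fell. Of the 6, 4 had positive and 2 negative differences with RA/Fsk, with a median of 0.06 on the log2 scale. With FBS the neuron marker sum was 731 to 885, and 2 of the 6 rose, Chgb, a granin of secretory vesicles, by 3.79 and the neurofilament gene Nefm by 2.26 on the log2 scale. The RA/Fsk cultures are called neurons in the labels and RA/Fsk here. Tubb3, Gfap and Sox2 had no single-symbol probe set.

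Promoter sequences of the members are shown first, because most nuclear respiratory genes are known targets of the transcription factors NRF-1 and NRF-2, the latter an ETS factor also called GABP. RefSeq promoters of the rat build GRCr8, which run from 250 bases before to 50 bases after the start of a gene, were matched to 47 of the 56 genes. The NRF-1 core GCGCATG, searched on both strands, was found in 5 of the 47, or 10.6%, against 3.77% of all 33469 promoters and 4.8% of the promoters of genes on the array. The ETS core CCGGAAG was found in 10 of the 47, or 21.3%, against 8.75% of all promoters and 12.3% of those on the array. Ndufa6, Ndufb6, Ndufb8, Cox5b and Atp5po held the NRF-1 core. The 250 bases before the start of 4 genes follow, 5′ to 3′ on the strand of the gene, with the matches to either core, in either orientation, in capitals. Ndufa6 (chr7:115750318-115750567, minus strand) and Atp5po (chr11:44657484-44657733, minus strand) are shown as NRF-1 core holders that fell with FBS. Cox5b (chr9:46417587-46417836, plus strand) is shown as a holder of both cores whose transcript did not pass the test. Sdhaf2 (chr1:216592669-216592918, minus strand) is shown as the member that rose.
Ndufa6: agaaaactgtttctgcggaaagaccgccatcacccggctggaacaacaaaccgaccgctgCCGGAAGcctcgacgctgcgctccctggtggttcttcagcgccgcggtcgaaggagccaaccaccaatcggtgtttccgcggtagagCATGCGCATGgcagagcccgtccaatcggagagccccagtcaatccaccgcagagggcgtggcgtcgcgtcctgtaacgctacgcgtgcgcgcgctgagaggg
Atp5po: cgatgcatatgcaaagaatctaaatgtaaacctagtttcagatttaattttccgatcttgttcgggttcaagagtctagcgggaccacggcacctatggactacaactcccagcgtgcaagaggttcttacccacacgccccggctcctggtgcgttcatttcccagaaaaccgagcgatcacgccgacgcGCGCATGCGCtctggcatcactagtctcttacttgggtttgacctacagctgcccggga
Cox5b: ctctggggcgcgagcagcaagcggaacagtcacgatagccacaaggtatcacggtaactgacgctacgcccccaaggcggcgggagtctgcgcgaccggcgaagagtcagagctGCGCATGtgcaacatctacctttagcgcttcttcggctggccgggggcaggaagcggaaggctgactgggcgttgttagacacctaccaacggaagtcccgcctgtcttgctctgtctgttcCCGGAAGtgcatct
Sdhaf2: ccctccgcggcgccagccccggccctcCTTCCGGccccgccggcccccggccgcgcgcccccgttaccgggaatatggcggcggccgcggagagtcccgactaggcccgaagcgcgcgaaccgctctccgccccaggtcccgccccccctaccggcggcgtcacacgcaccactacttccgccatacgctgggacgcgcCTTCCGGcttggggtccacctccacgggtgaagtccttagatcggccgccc

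In Ndufa6 the ETS core started 190 bases before the gene start, and overlapping NRF-1 cores on opposite strands started 103 and 100 bases before it. In Atp5po the overlapping pair started 59 and 56 bases before the start. Cox5b had the NRF-1 core at 136 and the ETS core at 14 bases before the start. The ETS cores of Sdhaf2 lay at 223 and 51 bases before the start and, outside the bases shown, 7 bases after it. Of the 26 matched members that fell with FBS, 4 held the NRF-1 core and 3 the ETS core, and of the 21 others 1 and 7 did. A match of these letters is a description of the sequence and not a bound site.

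The question put first was which respiratory genes differed between LD progenitors and the cells derived from them with FBS. With FBS, 27 of the 56 genes fell and 1 rose. The largest fall was that of Ndufab1, a complex I subunit, which was 2.16-fold lower than in LD. The gene that rose was Sdhaf2, an assembly factor of complex II, by 1.9-fold. Falls were counted in 15 of 26 genes of complex I, 1 of 4 of complex III, 2 of 11 of complex IV and 6 of 9 of complex V, and the single complex II gene did not pass. A gene is said to rise or fall where limma's adjusted p, taken over all 8740 probe sets, was under 0.05. Of all probe sets, 12.3% fell and 13.2% rose with FBS, and of the brighter 50%, to which 54 of the 56 genes belonged, 19.8% fell and 20.5% rose.

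The median difference with FBS, on the log2 scale, was -0.35 over the 56 genes and -0.09 over all probe sets. In 35 of the 56 genes every FBS culture lay below every LD culture, which held for 18.5% of all probe sets. The median gene of complex I stood 0.16 to 0.18 above its mean over all cultures in LD and between -0.28 and -0.11 with FBS. For complex V it was 0.16 to 0.23 in LD and -0.33 to -0.1 with FBS. In complex III the FBS cultures ran from -0.35 to -0.14, below LD at -0.01 to 0.18. In complex IV the FBS cultures at -0.16 to 0.0 overlapped LD at -0.02 to 0.16. Whether the complexes differed from each other was not tested. In bulk RNA, a smaller share of cells that express a gene and less of its RNA per cell cannot be told apart.

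**Figure D1:**
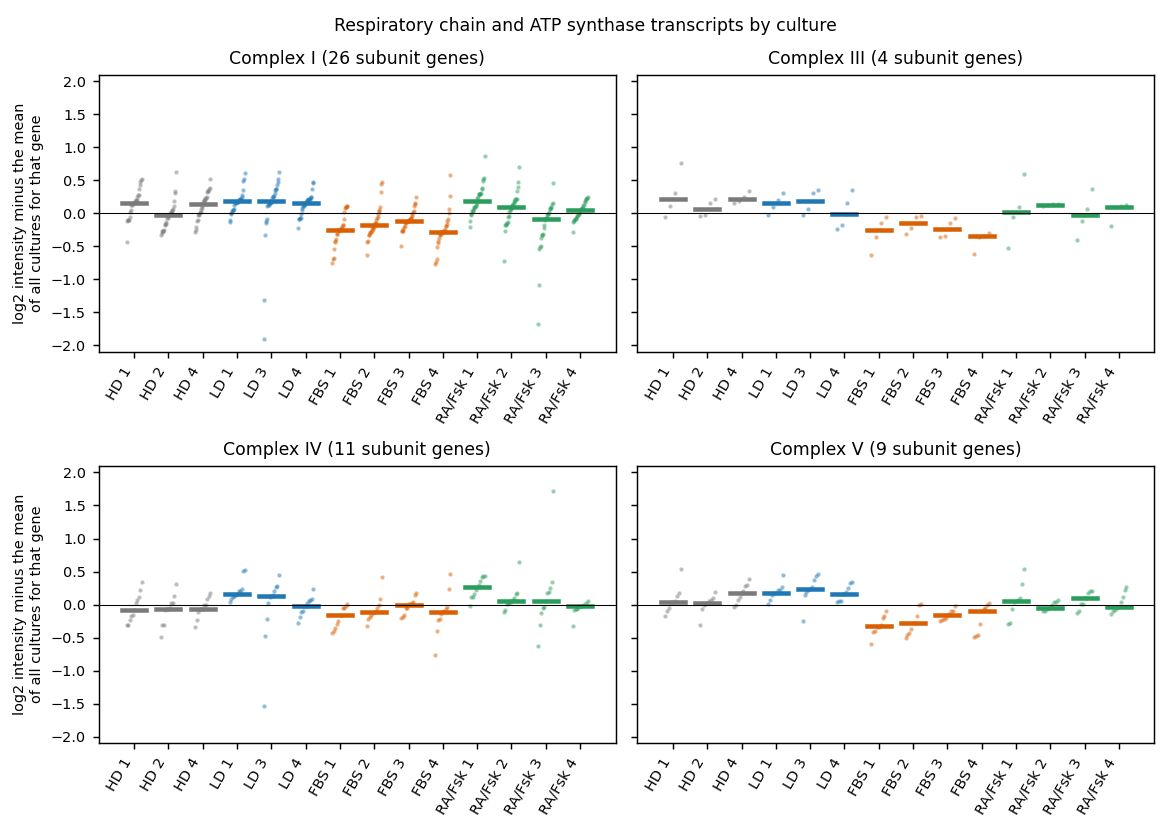
Levels of the subunit genes of complexes I, III, IV and V in the 14 cultures, as log2 intensity minus the mean of all cultures for that gene. Each point is a gene, sorted by value from left to right within a culture, and the bar is the median over genes. The 4 FBS cultures have the lowest medians in complexes I, III and V (at most -0.11, -0.14 and -0.1), and overlap other cultures in complex IV.

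The fall with FBS moved with brightness over the whole array. Among all probe sets with a mean log2 intensity of 8 to 10, 26.9% fell, and among the 23 genes in that range 13 did, or 56.5%. From 10 to 12 the shares were 42.0% of all probe sets and 52.4% of the genes, 11 of 21. At 12 and above, 72.0% of all probe sets fell, with a median of -0.85, against 1 of the 4 genes there, Atp5f1b, Cox4i1, Cox6a1 and Cox8a, whose median was -0.27. With the arrays quantile normalized these 4 genes had a median of 0.29, and Cox4i1 and Cox6a1 then rose. With that scaling 14 of 23 genes fell at 8 to 10, against 341 of 1113 probe sets. At 10 to 12 it was 8 of 21 against 147 of 393, so the members were close to probe sets of like brightness there. At 12 and above it was 0 of 4 against 62 of 132. The part of brightness in the result was not tested beyond that. With quantile normalization 24 of the 56 genes fell with FBS, of which 23 were among the 27, and with each array centred on its median 25 fell, of which 24 were. Ndufb1 was the added gene both times. Atp5f1b, Atp5f1d and Ndufb8 were lost under both scalings, and Atp5po with quantile normalization.

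An RNA quality control also moved with the groups. The log2 ratio of the 5′ to the 3′ GAPDH control probe set was -0.47 to -0.21 in LD and -0.16 to -0.01 with FBS, without overlap. The same ratio for beta-actin overlapped between LD, FBS and RA/Fsk, at -0.09 to 0.01 in LD, -0.05 to 0.13 with FBS and -0.45 to 0.26 with RA/Fsk. In HD the beta-actin ratio was 0.15 to 0.25, above LD and FBS without overlap. The GAPDH ratio in HD was -0.2 to 0.05, above LD without overlap. With the GAPDH ratio as a covariate in limma, 12 of the 27 genes fell and none rose. The genes lost were Atp5f1a, Atp5f1b, Atp5f1d, Atp5if1, Cox5a, Cox7a2l, Ndufa5, Ndufa9, Ndufaf3, Ndufb2, Ndufb3, Ndufb6, Ndufb8, Ndufs4 and Ndufs6. At an unadjusted p under 0.05, 22 fell and 2 rose with the covariate, and 32 and 2 without it. Array 3r of FBS culture 3, a second array of that number, read higher than array 3 in 41 of the 56 genes, by a median of 0.3. With array 3r alone for that culture 15 genes fell. The count also changed when single cultures were left out. It was 17 without LD 1, 14 without LD 3 and 16 without FBS 1.

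Other cell programmes moved with the same groups. All 5 measured proliferation markers fell with FBS, and their summed intensity was 9161 to 11523 in LD, 2843 to 3341 with FBS, 3260 to 7806 with RA/Fsk and 9177 to 10977 in HD. The summed intensity of 7 fibroblast and meningeal markers was 200 to 279 in LD and 2131 to 3676 with FBS, with Fn1, fibronectin, the one that rose. The collagens Col1a1, Col1a2 and Col3a1, and Dcn, Lum and Pdgfrb, did not pass. The summed intensity of 6 microglia and macrophage markers was 152 to 236 in LD and 140 to 179 with FBS, and that of 3 endothelial markers 78 to 98 and 46 to 91. Of 8 muscle markers, Tagln rose with FBS, and the sum went from 266 to 300 in LD to 521 to 871. Of 6 oligodendrocyte lineage markers, Mbp rose and Pdgfra fell with FBS, and Mbp and Cnp rose with RA/Fsk. Of 6 neural progenitor markers 3 fell with FBS, Fabp7 by 1.79, Hes5 by 1.21 and Notch1 by 0.51 on the log2 scale, while the sum, 5184 to 7407 in LD and 6466 to 6887 with FBS, overlapped. The part of these programmes in the differences of the respiratory genes was not tested.

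**Figure D2:**
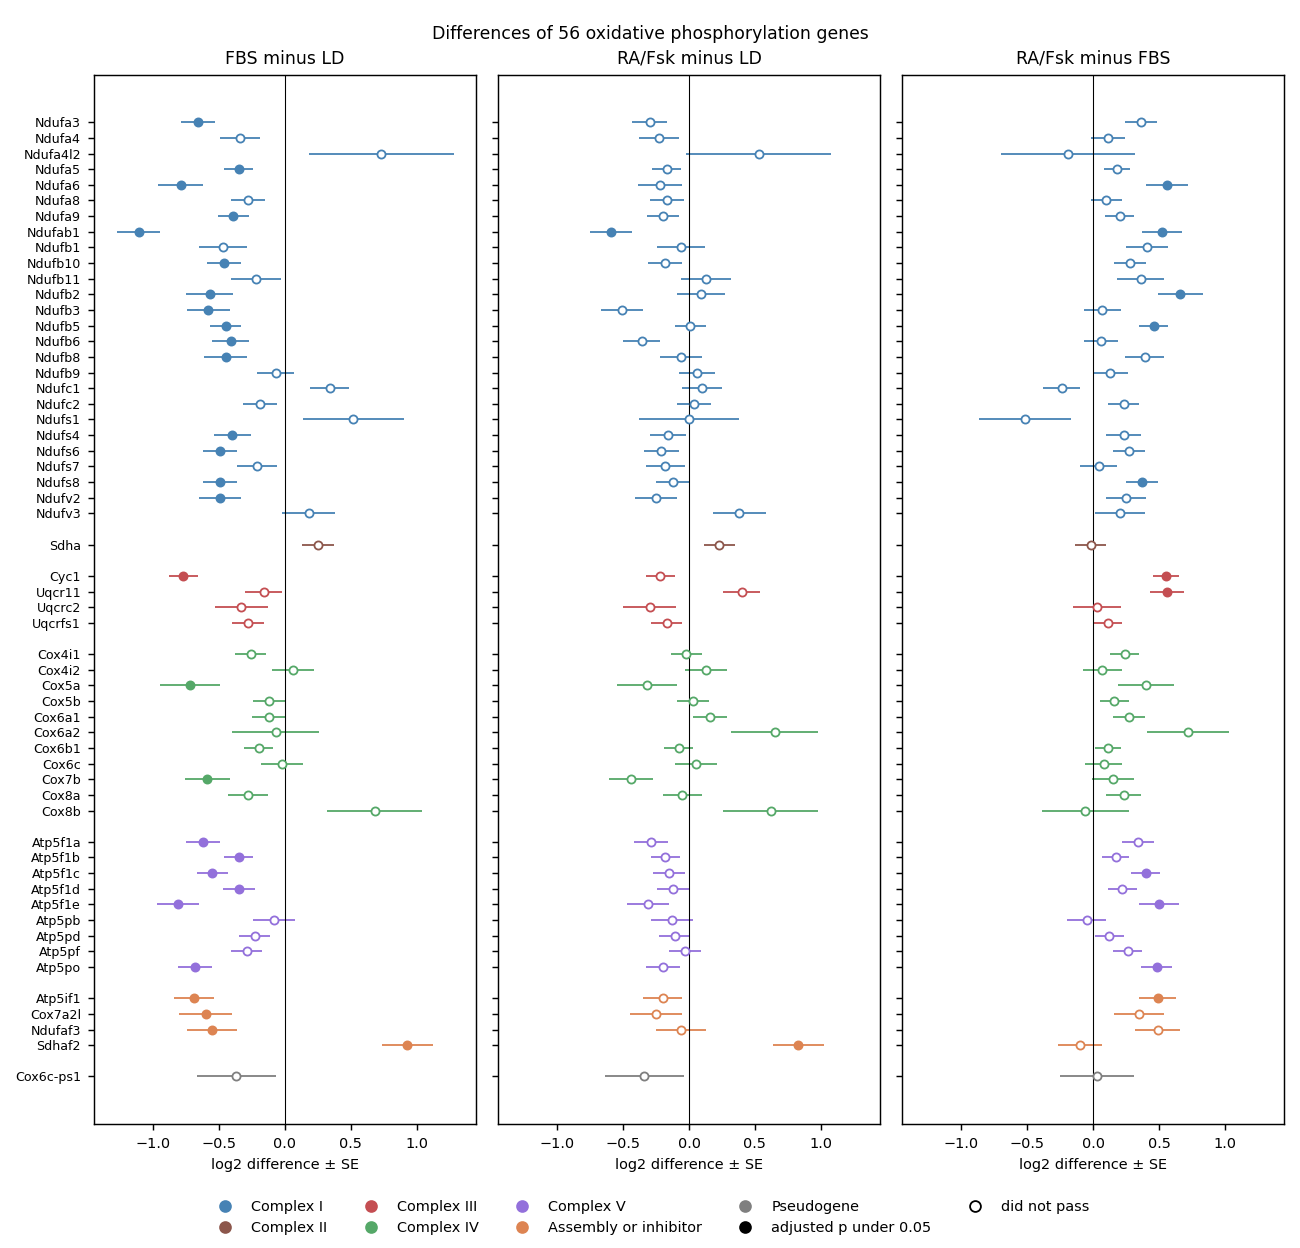
Differences of the 56 genes, on the log2 scale with their standard errors, for FBS minus LD, RA/Fsk minus LD and RA/Fsk minus FBS; filled points passed the test and open points did not. With FBS most genes lie left of 0 (48 of 56), with Sdhaf2 at 0.93 to the right, while in RA/Fsk minus LD the differences are smaller (median -0.13) and 2 genes passed. The panels share the LD or the FBS cultures, so they are not independent.

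Complex I, NADH dehydrogenase, is the largest complex and the entry point for electrons from NADH. Its core subunits carry flavin and iron-sulfur clusters, and its accessory subunits surround and stabilise them. With FBS 2 of the 4 measured nuclear core subunits fell and 13 of the 22 genes counted by name as accessory subunits did. The 22 include Ndufa4 and the dim Ndufa4l2, neither of which passed. Of the 9 Ndufb subunits of the membrane arm 6 fell, with differences of -0.58 to -0.07 over the 9.

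Ndufab1 is both an accessory subunit and the mitochondrial acyl carrier protein, which serves fatty acid synthesis inside the mitochondrion. Its intensity was 2975, 3190 and 2835 in LD, 1296, 1526, 1466 and 1274 with FBS, 2444, 2310, 1415 and 1956 with RA/Fsk, and 2376, 2616 and 2660 in HD. The FBS and the RA/Fsk cultures all lay below LD, with RA/Fsk 3 in the range of the FBS cultures. The difference was -1.11 ± 0.16 (SE, 4 FBS and 3 LD cultures), with an adjusted p of 4.4e-05, and it passed in all 27 alternative analyses. The other probe sets of the gene gave -0.63 and -0.66.

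Ndufa6, a small accessory subunit of the LYR protein family, had 928, 859 and 936 in LD, 430, 573, 600 and 508 with FBS, and 899, 781, 720 and 715 with RA/Fsk. In HD it had 1010, 590 and 907. FBS and LD did not overlap, while RA/Fsk reached into the LD range and HD 2 lay among the FBS cultures. The fall with FBS was -0.79 ± 0.17 (adjusted p = 0.00206), and the second probe set of the gene, which also passed, gave -0.77.

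Ndufa3, another accessory subunit, had 867, 1026 and 850 in LD, 505, 582, 605 and 613 with FBS, 788, 652, 692 and 831 with RA/Fsk, and 949, 760 and 743 in HD. All FBS cultures lay below every other culture. FBS differed from LD by -0.66 ± 0.13 (adjusted p = 0.00124). Like Ndufab1 and Ndufa6, Ndufa3 passed in all 27 alternatives.

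Ndufb2 and Ndufb5 belong to the membrane arm. Ndufb2 had 1639, 1802 and 1334 in LD, 870, 1270, 1364 and 843 with FBS, 2037, 1782, 1494 and 1488 with RA/Fsk, and 1578, 1342 and 1427 in HD. FBS 3 was above LD 4, so these groups overlapped. The fall of Ndufb2 with FBS was -0.57 ± 0.18 (adjusted p = 0.0258), and it did not pass without LD 1, LD 3, FBS 1 or FBS 4. Ndufb5 had 727, 730 and 750 in LD, 541, 535, 585 and 496 with FBS, 834, 750, 721 and 671 with RA/Fsk, and 668, 574 and 557 in HD. Its FBS cultures lay below all LD and all RA/Fsk cultures and overlapped HD. The fall of Ndufb5 with FBS was -0.45 ± 0.12 (adjusted p = 0.00807). Its second probe set gave -0.27 and did not pass, and neither did the mean of its probe sets.

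Ndufs8 is a core subunit that carries iron-sulfur clusters near the quinone site. It had 813, 968 and 932 in LD, 583, 664, 685 and 638 with FBS, 954, 852, 826 and 713 with RA/Fsk, and 889, 818 and 725 in HD. The FBS cultures were below all others. The difference of FBS from LD was -0.49 ± 0.13 (adjusted p = 0.00776). Its probe sets were not in accord: of the other 3, the differences were 0.31, -0.3 and -1.04, and with the mean of all its probe sets Ndufs8 did not pass.

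The other core subunit that fell was Ndufv2, part of the NADH-oxidising end, at -0.49 ± 0.16 (adjusted p = 0.0288). Ndufs7, the core subunit next to the quinone site, differed by -0.21 ± 0.15 and did not pass. The core subunit Ndufs1 was dim, at 105, 33.8 and 98.9 in LD and 80.0, 125, 86.1 and 139 with FBS, and its difference of 0.52 ± 0.38 did not pass. Ndufb3 (-0.58), Ndufs6 (-0.49), Ndufb10 (-0.46), Ndufb8 (-0.45), Ndufb6 (-0.41), Ndufs4 (-0.4), Ndufa9 (-0.39) and Ndufa5 (-0.35) also fell. Of these, Ndufb6, Ndufb8 and Ndufs4 passed in at most 14 of the 27 alternatives.

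The 11 genes of complex I that did not pass were Ndufs1, Ndufs7, Ndufa4, Ndufa4l2, Ndufa8, Ndufb1, Ndufb11, Ndufb9, Ndufc1, Ndufc2 and Ndufv3. Ndufc1 was the clearest case on the other side, at 920, 912 and 954 in LD and 1099, 1268, 1125 and 1211 with FBS. The groups of Ndufc1 did not overlap, and its difference of 0.34 ± 0.15 had an adjusted p of 0.116. Its second, dimmer probe set gave 0.68 with an adjusted p of 0.00449. Ndufa4 is kept in complex I here by its name, although it is now known as a subunit of complex IV. Its difference was -0.34 ± 0.15, which did not pass.

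Complex II, succinate dehydrogenase, also works in the tricarboxylic acid cycle. Its flavoprotein subunit Sdha had 407, 489 and 455 in LD, 584, 533, 563 and 463 with FBS, 481, 519, 591 and 526 with RA/Fsk, and 506, 486 and 553 in HD. All groups overlapped. The difference of FBS from LD was 0.25 ± 0.12, with an adjusted p of 0.178. Sdha was thus 1 of 8 members with a positive difference.

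Complex III, the cytochrome bc1 complex, passes electrons from ubiquinol to cytochrome c. Cyc1, cytochrome c1, is its haem subunit that hands the electron on. It had 2404, 2395 and 2462 in LD, 1253, 1651, 1529 and 1268 with FBS, 2073, 2134, 2023 and 2081 with RA/Fsk, and 2099, 2168 and 2147 in HD. Every FBS culture lay below every other culture, and RA/Fsk lay between FBS and LD. The difference of FBS from LD was -0.77 ± 0.11, with an adjusted p of 6.0e-05 and a range from 1.46e-06 to 0.0025 over the 27 alternatives.

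Uqcr11, a small subunit, had 2981, 2989 and 2561 in LD, 2369, 2439, 2879 and 2462 with FBS, 4590, 3330, 3929 and 3257 with RA/Fsk, and 2905, 2957 and 3591 in HD. LD and FBS overlapped, and the RA/Fsk cultures lay above both. The difference of FBS from LD was -0.16 ± 0.14 (adjusted p = 0.445). Uqcrfs1, the Rieske iron-sulfur protein, differed by -0.28 ± 0.12 with FBS, and Uqcrc2, a core protein, by -0.33 ± 0.2. Neither passed, although the 2 dimmer probe sets of Uqcrfs1 did, at -0.44 and -0.72.

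Complex IV, cytochrome c oxidase, reduces oxygen. Its catalytic subunits are mitochondrially encoded and were not measured, and 2 of its 11 nuclear genes fell with FBS. Cox7b, a small subunit, had 2298, 1953 and 1891 in LD, 1314, 1474, 1417 and 1214 with FBS, 1754, 1805, 1038 and 1541 with RA/Fsk, and 2048, 1768 and 1536 in HD. The FBS cultures were below all LD and HD cultures, and RA/Fsk 3 was the lowest of all. The difference of FBS from LD was -0.59 ± 0.17 (adjusted p = 0.0159), and the fall was lost without LD 1, where the adjusted p was 0.0774, the highest over the alternatives, which started at 0.000957.

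Cox5a, another nuclear subunit, was dim, at 117, 110 and 82.8 in LD, 60.6, 62.5, 76.3 and 44.4 with FBS, and 95.9, 85.5, 82.3 and 62.4 with RA/Fsk. In HD it had 86.3, 99.9 and 75.4. FBS lay below LD without overlap. The difference was -0.72 ± 0.23 (adjusted p = 0.0267), and it did not pass without LD 1, LD 3, FBS 1 or FBS 4.

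The other widely expressed subunits Cox4i1, Cox5b, Cox6a1, Cox6b1, Cox6c and Cox8a differed by -0.28 to -0.02 with FBS, and none passed. Cox4i1, the common form of subunit 4, had 6150, 6713 and 5509 in LD and 4981, 4800, 5593 and 5064 with FBS, which overlapped. Its difference of -0.26 ± 0.12 turned to 0.31 with quantile normalization, as that of Cox6a1 turned from -0.12 to 0.44. Another, dimmer probe set of Cox4i1 gave -0.4 and passed, as did 1 dimmer probe set of Cox6c at -1.02 and 1 of Cox8a at -0.51.

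Of the isoforms known mainly from other tissues, Cox4i2 from lung, and Cox6a2 and Cox8b from heart and skeletal muscle, none passed in FBS minus LD, where their differences were 0.06, -0.07 and 0.68 (adjusted p = 0.852, 0.913 and 0.203). Cox4i2 had 240, 174 and 200 in LD, 195, 215, 196 and 242 with FBS, 278, 231, 187 and 204 with RA/Fsk, and 182, 164 and 173 in HD, so that LD, FBS and RA/Fsk overlapped. Cox6a2 stayed between 97.9 and 180 in 13 cultures and reached 471 in RA/Fsk 3. Cox8b ranged from 12 to 71.8, and its probe set lay in the dimmer 50%.

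Complex V, the ATP synthase, turns the proton gradient into ATP. Its F1 head holds the catalytic alpha and beta subunits and the central gamma, delta and epsilon subunits, and a peripheral stalk holds the head in place. With FBS all 5 F1 genes fell, with differences of -0.81 to -0.35, but with quantile normalization that of Atp5f1b turned from -0.35 to 0.16 and did not pass. Atp5f1d did not pass with quantile normalization either. With the GAPDH ratio as a covariate Atp5f1a, Atp5f1b and Atp5f1d did not pass. Of the 4 measured genes of the peripheral stalk, Atp5po fell and Atp5pb, Atp5pd and Atp5pf did not pass. The difference between head and stalk was not tested.

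Atp5f1e, the epsilon subunit, had 4239, 4271 and 3448 in LD, 2049, 2183, 2616 and 2235 with FBS, 4496, 2885, 2906 and 2809 with RA/Fsk, and 3206, 3533 and 3742 in HD. All FBS cultures lay below every other culture. The fall with FBS was -0.81 ± 0.16 (adjusted p = 0.000994) and passed in all 27 alternatives, and the second probe set gave -0.73. RA/Fsk 1 stood above the other RA/Fsk cultures.

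Atp5po, the oligomycin sensitivity protein at the top of the stalk, had 4721, 5287 and 4671 in LD, 3100, 2904, 3401 and 2782 with FBS, 4869, 4019, 4523 and 3671 with RA/Fsk, and 3486, 4079 and 4555 in HD. The FBS cultures lay below all others. The fall with FBS was -0.68 ± 0.13 (adjusted p = 0.000805), which with quantile normalization shrank to -0.29 and did not pass. Its second probe set gave -0.32 and did not pass.

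Atp5f1a, the alpha subunit, had 972, 1076 and 1058 in LD, 721, 646, 712 and 605 with FBS, 689, 856, 965 and 901 with RA/Fsk, and 852, 840 and 946 in HD. RA/Fsk 1 lay in the range of the FBS cultures and the other RA/Fsk cultures above it. FBS differed from LD by -0.62 ± 0.13 (adjusted p = 0.00127), which did not pass with the GAPDH ratio as a covariate. Atp5f1c, the gamma subunit of the rotor, had 1561, 1658 and 1546 in LD, 1044, 1003, 1175 and 1130 with FBS, 1317, 1334, 1484 and 1617 with RA/Fsk, and 1559, 1411 and 1802 in HD. The FBS cultures were below all others, with a fall of -0.55 ± 0.12 (adjusted p = 0.00221) that passed in all 27 alternatives. Atp5f1d, the delta subunit, fell by 0.35 on the log2 scale and passed in 13 of the 27.

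**Figure D3:**
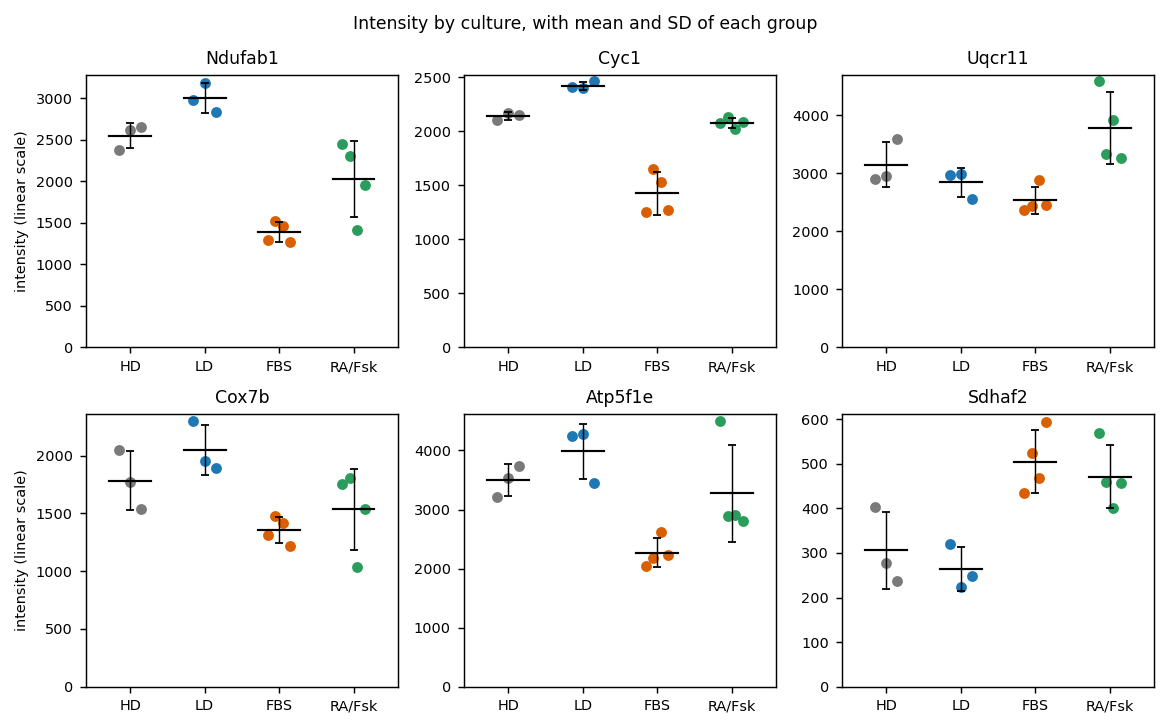
Intensity of 6 genes by culture on linear axes that start at 0, with the mean and SD of each group as a line and bars; each point is a culture. Ndufab1, Cyc1, Cox7b and Atp5f1e are lowest with FBS (Cyc1 at 1253 to 1651 against 2395 to 2462 in LD), Uqcr11 is highest with RA/Fsk, and Sdhaf2 is high with FBS and with RA/Fsk.

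All 4 assembly and inhibitor genes passed in FBS minus LD, 3 of them downward. Atp5if1 is the inhibitor that blocks ATP hydrolysis by complex V. It had 1378, 1828 and 1668 in LD, 1030, 983, 978 and 998 with FBS, 1406, 1159, 1582 and 1503 with RA/Fsk, and 1006, 1200 and 1546 in HD. The FBS cultures were close together and below LD and RA/Fsk, with HD 1 among them. FBS differed from LD by -0.69 ± 0.15 (adjusted p = 0.00223).

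Cox7a2l, a factor that helps to join complexes into supercomplexes, had 611, 760 and 650 in LD, 400, 578, 423 and 382 with FBS, 523, 489, 754 and 517 with RA/Fsk, and 769, 519 and 922 in HD. FBS lay below LD, and both RA/Fsk and HD overlapped it. The fall with FBS was -0.6 ± 0.2 (adjusted p = 0.0359) and did not pass without any 1 of LD 1, LD 3, LD 4, FBS 1, FBS 3 or FBS 4. Ndufaf3, an assembly factor of complex I, fell by 0.55 on the log2 scale (adjusted p = 0.0393), and the call was lost without any 1 of the LD or FBS cultures. With the mean of all their probe sets neither Cox7a2l nor Ndufaf3 passed.

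Sdhaf2 helps to attach flavin to Sdha. It had 320, 224 and 249 in LD, 434, 525, 468 and 593 with FBS, 570, 458, 400 and 456 with RA/Fsk, and 403, 278 and 237 in HD. All FBS and RA/Fsk cultures lay above all LD cultures, and HD 1 reached the lower end of RA/Fsk. Its rise with FBS was 0.93 ± 0.19 (adjusted p = 0.00126). The rise was 0.52 with the GAPDH ratio as a covariate and did not pass there (adjusted p = 0.0749, the highest of a range that started at 0.000458).

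The next question was how these genes differed between LD progenitors and cells given RA/Fsk. With RA/Fsk 1 of the 56 genes fell, Ndufab1, and 1 rose, Sdhaf2. Of all probe sets 3.54% fell and 4.71% rose. At an unadjusted p under 0.05, 6 genes (10.7%) were lower and 2 (3.57%) higher, and 11.1% and 9.98% of all probe sets were. The median difference was -0.13 over the 56 genes and -0.05 over all probe sets, and by complex it was -0.17 in complex I, -0.19 in III, 0.03 in IV and -0.15 in V.

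Ndufab1 fell by 0.59 ± 0.16 (SE) on the log2 scale with RA/Fsk (adjusted p = 0.0273). This call was lost without LD 1, LD 3, LD 4 or RA/Fsk 4. It was also lost with quantile normalization, without the intensity trend and with only the 2 groups compared. The adjusted p lay between 0.011 and 0.127 over the 27 alternatives. The rise of Sdhaf2 with RA/Fsk was 0.83 ± 0.19 (adjusted p = 0.0103), and without LD 3 the adjusted p was 0.0617, the highest in a range from 0.00226. Of the rest, Uqcr11 was closest to a rise at 0.4 ± 0.14 (adjusted p = 0.095), with all RA/Fsk cultures above all LD cultures. Ndufb3 was closest to a fall at -0.51 ± 0.16 (adjusted p = 0.0563). These 2 were picked after their values were seen.

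RA/Fsk and FBS cultures were then compared directly, which tests the difference between the derived groups of cultures. In RA/Fsk 11 of the 56 genes were higher than with FBS and 0 were lower. Of all probe sets 8.27% were higher and 10.1% lower, and of the brighter 50% of probe sets 14.7% were higher. At a mean log2 intensity of 8 to 10, 3 of 23 genes (13.0%) were higher in RA/Fsk against 20.5% of all probe sets there, and at 10 to 12, 8 of 21 (38.1%) against 32.6%. At 12 and above 0 of 4 genes were, against 60.6%. The share of the members was thus near or below that of probe sets of like brightness. At an unadjusted p under 0.05, 21 genes (37.5%) were higher and none lower, and 13.7% and 14.2% of all probe sets were. The 11 were Ndufa6, Ndufab1, Ndufb2, Ndufb5 and Ndufs8 of complex I, Cyc1 and Uqcr11 of complex III, Atp5f1c, Atp5f1e and Atp5po of complex V, and the inhibitor Atp5if1. None of the 11 genes of complex IV passed.

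The largest of these differences were those of Ndufb2 at 0.66 ± 0.17 (adjusted p = 0.00874), Ndufa6 at 0.56 ± 0.16 (adjusted p = 0.018), Uqcr11 at 0.56 ± 0.13 (adjusted p = 0.00469) and Cyc1 at 0.55 ± 0.1 (adjusted p = 0.00106). Cyc1 and Uqcr11 passed in all 27 alternatives. The other complex I genes were Ndufab1 at 0.52 (adjusted p = 0.0185), Ndufb5 at 0.46 (adjusted p = 0.00574) and Ndufs8 at 0.37 (adjusted p = 0.0346). Atp5f1e differed by 0.5 (adjusted p = 0.0239), Atp5po by 0.48 (adjusted p = 0.00962), Atp5f1c by 0.4 (adjusted p = 0.0166) and Atp5if1 by 0.49 (adjusted p = 0.0199). Of the 11 genes, 8 had other probe sets, 13 in all, of which 11 had the same sign and 4 of these passed. Those of opposite sign, at -0.39 for Ndufab1 and -0.13 for Ndufs8, did not pass. Other probe sets of Ndufab1, Ndufb5 and Atp5po gave 0.14, 0.2 and 0.21 and did not pass. This comparison shares its FBS cultures with FBS minus LD, so the 2 sets of values are not independent.

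This count also changed with the arrays used. It was 7 without FBS 1, 6 with array 3r alone for FBS culture 3, 17 with array 3 alone, and 3 with the GAPDH ratio as a covariate. The GAPDH ratio was -0.47 to -0.11 in RA/Fsk, against -0.16 to -0.01 with FBS. The calls of Atp5f1e and Ndufs8 were lost without RA/Fsk 1, FBS 1, FBS 2 or FBS 4, and that of Ndufs8 also without RA/Fsk 2. With quantile normalization 9 of the 11 passed, without Atp5f1e and Atp5po. The calls of Ndufab1 were lost without FBS 1, FBS 4, RA/Fsk 1 or RA/Fsk 2, of Ndufa6 without FBS 1 or RA/Fsk 1, of Atp5if1 without RA/Fsk 3 or RA/Fsk 4, and of Atp5f1c without FBS 2 or RA/Fsk 4.

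High-density and low-density progenitors were compared to see whether the same genes differed with density. None of the 56 genes passed by limma, and at an unadjusted p under 0.05, 3 (5.36%) were lower in HD and none higher, and 7.63% and 6.2% of all probe sets were. Of all probe sets 0.858% passed in either direction. The differences ran from -0.39 for Ndufs6 and Atp5if1 to 0.84 for Ndufs1, with a median of -0.12. The HD labels do not name CCg, so density may not be the sole difference between these groups. Both RNA quality ratios were also higher in HD than in LD, without overlap.

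Against HD as the starting point, 12 genes were lower with FBS and 1, Sdhaf2, was higher, against 9.7% and 11.3% of all probe sets. The median difference was -0.24 over the 56 genes and 0.03 over all probe sets. At an unadjusted p under 0.05 by limma, 24 genes (42.9%) were lower and 2 (3.57%) higher, and 13.4% and 15.9% of all probe sets were. Of the brighter 50% of probe sets 17.7% were lower with FBS. At a mean log2 intensity of 8 to 10, 5 of 23 genes (21.7%) were lower against 25.1% of all probe sets there, at 10 to 12, 6 of 21 (28.6%) against 36.1%, and at 12 and above 0 of 4 against 62.1%. Under the main scaling the members were thus called lower in no larger share than probe sets of like brightness above 8. With quantile normalization 8 of 23 genes were lower at 8 to 10, against 310 of 1113 probe sets. At 10 to 12 it was 3 of 21 against 130 of 393, and at 12 and above 0 of 4 against 57 of 132. The 12 were Ndufa3, Ndufa6 and Ndufab1 of complex I, Cyc1, Uqcrc2 and Uqcrfs1 of complex III, Atp5f1a, Atp5f1c, Atp5f1e and Atp5po of complex V, and Cox7a2l and Ndufaf3. Ndufab1 differed by -0.88 ± 0.16 (adjusted p = 0.000495), and Cyc1 by -0.59 ± 0.11 (adjusted p = 0.000795). The count was 6 without HD 1, 7 without HD 4 and 7 without FBS 4, and 23 with each array centred on its median, which moved the median of all probe sets from 0.03 to -0.16. With quantile normalization Cox4i1, Cox6a1, Cox8a and Atp5f1b were higher with FBS than in HD. The beta-actin 5′ to 3′ ratio was 0.15 to 0.25 in HD and -0.05 to 0.13 with FBS, and its part in these differences was not tested. Between RA/Fsk and HD, Sdhaf2 was higher by 0.64 ± 0.19 (adjusted p = 0.0411) and no gene was lower, against 4.85% and 5.32% of all probe sets. At an unadjusted p under 0.05, 5 genes (8.93%) were lower by limma, and 10.8% of all probe sets were. This call of Sdhaf2 was lost without HD 2, HD 4, LD 4, FBS 2, FBS 3, RA/Fsk 1, RA/Fsk 2 or RA/Fsk 4. It was also lost with quantile normalization, with array 3r alone for FBS culture 3, without the intensity trend and with only the 2 groups compared.

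The neighbouring mitochondrial pathways did not all move the same way with FBS. The counts of these lists are to be read beside the shares of all probe sets. With FBS 12.3% of all probe sets fell and 13.2% rose, and of the brighter 50% 19.8% fell and 20.5% rose. With RA/Fsk 3.54% fell and 4.71% rose, and of the brighter 50% 5.77% and 8.47%. Of 16 measured genes of fatty acid oxidation, which feeds electrons to the chain, 10 rose and none fell, with a median of 0.66. Cpt1a, which admits long-chain fatty acids to the mitochondrion, rose by 1.94 ± 0.27 (adjusted p = 3.8e-05), and Acadvl, the very long-chain acyl-CoA dehydrogenase, by 1.3 ± 0.17. Decr1, which handles unsaturated chains, rose by 0.78, and Cpt2, the inner membrane partner of Cpt1a, by 1.01. With RA/Fsk 2 of the 16 rose, Cpt1a by 1.56 and Acadvl by 0.73. Acadvl with RA/Fsk did not pass without LD 3.

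Of 17 measured genes of the tricarboxylic acid cycle and pyruvate dehydrogenase, 4 fell and 1 rose with FBS, with a median of -0.04. The number that fell lay between 2 and 4 over the 27 alternatives. Idh2, the mitochondrial NADP isocitrate dehydrogenase, fell by 1.81 ± 0.14 on the log2 scale (adjusted p = 6.8e-08), Suclg1, a succinyl-CoA synthetase subunit, by 0.77, and Idh3g, a subunit of the NAD isocitrate dehydrogenase, by 0.5. Mdh2 fell by 0.38 and passed in 17 of the 27 alternatives. Pdk2, a kinase that inhibits pyruvate dehydrogenase, rose by 2.28 ± 0.31 (adjusted p = 2.8e-05), and by 1.44 with RA/Fsk.

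Of 12 measured genes of protein import, chaperones and inner membrane, 6 fell and none rose with FBS, with a median of -0.41. The chaperonin genes Hspe1 and Hspd1 fell by 0.94 ± 0.13 and 0.88 ± 0.15 on the log2 scale, and the prohibitin Phb2 by 0.68 ± 0.11. With RA/Fsk Hspe1 fell by 0.63 and Hspd1 by 0.56. Hspd1 with RA/Fsk did not pass without LD 3, LD 4, RA/Fsk 1 or RA/Fsk 3. Pmpca, a subunit of the protease that trims imported precursors, fell by 0.74 ± 0.16 with FBS.

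Of 12 measured carriers and channels, Slc25a5, an ADP/ATP carrier, fell by 0.67 ± 0.15 on the log2 scale with FBS. Slc25a10, the dicarboxylate carrier, rose by 1.56 ± 0.19, and Slc25a11, the oxoglutarate carrier, by 0.52 ± 0.14. With RA/Fsk Slc25a10 rose by 1.35 and Slc25a1, the citrate carrier, by 0.58, the latter not without LD 3 or LD 4. Of 4 measured genes of other electron entry, Etfdh, which passes electrons from fatty acid oxidation to ubiquinone, rose by 0.57 with FBS (adjusted p = 0.0364), but not when any 1 of LD 1, LD 3, FBS 1, FBS 2, FBS 3 or FBS 4 was left out. Of 5 measured regulators of mitochondrial biogenesis, Ssbp1, which binds single-stranded mitochondrial DNA, fell by 0.69 with FBS. The 2 other assembly factors measured of 23 listed did not pass.

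**Figure D4:**
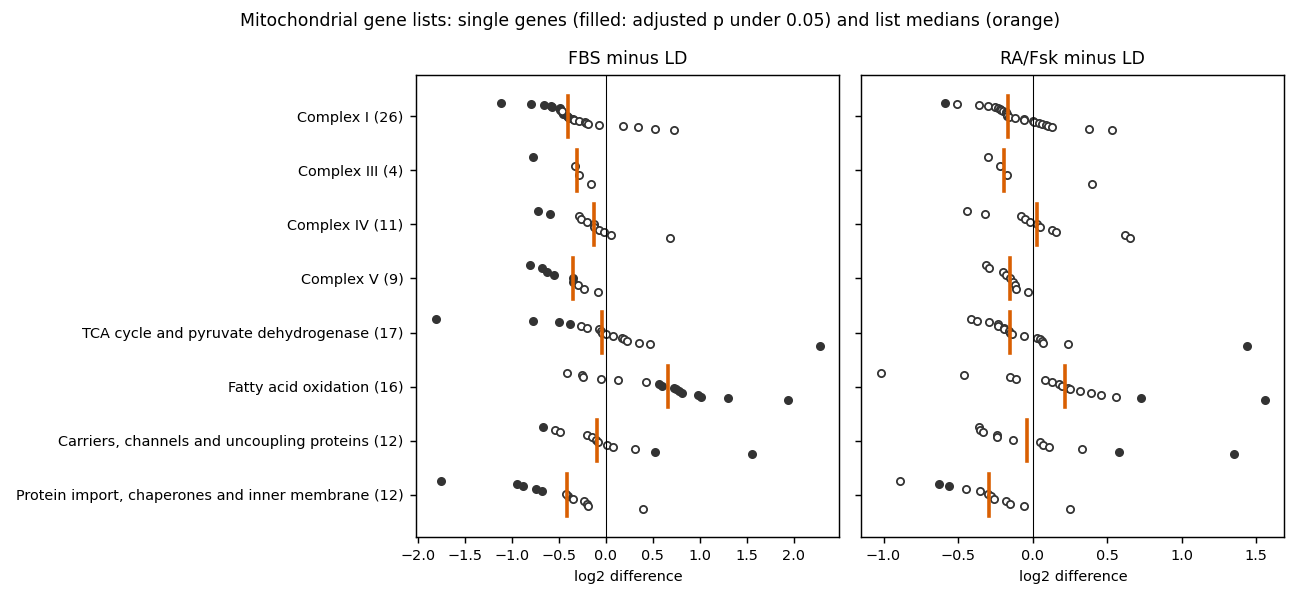
Log2 differences of single genes in complexes I, III, IV and V and in 4 neighbouring pathways, for FBS minus LD and RA/Fsk minus LD; filled points passed the test, the orange bar is the median of a list and the number of genes is in parentheses. With FBS the medians of complexes I, III and V lie at -0.41, -0.3 and -0.35, and that of fatty acid oxidation at 0.66.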

How the data were processed

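The deposited table holds linear intensities of 8799 probe sets on 20 arrays. How the authors obtained these intensities from the scans is not given in the sources used here, nor are detection calls. After 2% of the values at each end were left out, array means were all about 200, and the arrays therefore look scaled. 59 control probe sets were left out and 8740 tested. An offset of 4.99, 10% of the median positive intensity, was added before log2. Arrays of a group that share a label number were averaged, giving 14 cultures. limma 3.58.1 in R 4.3.3 (lmFit, eBayes with an intensity trend) fitted the 4 groups together with 10 residual degrees of freedom, and p-values were Benjamini-Hochberg adjusted over all 8740 probe sets. The fit was tested on simulated data. Symbols came from GEO's platform annotation: 7006 probe sets had a single symbol, 308 several and 1426 none.

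Per-culture values are given for up to 3 genes a complex with the smallest adjusted p in the main comparisons, for genes called in opposite directions in different comparisons and for tissue-restricted isoforms. Members and lists were chosen with earlier results of these data known. The main fit used no pairing, so the differences, standard errors and adjusted p-values it gave are unpaired. The label number entered only as a block in an alternative. Label numbers were taken to pair 2 groups where they shared at least 3 numbers and every same-number correlation of deviations was over 0.1. This held for RA/Fsk and LD (0.33, 0.16 and 0.11), from the data and not from the labels, and for no other pair of groups; HD and LD shared 2 numbers (0.14 and 0.09). Alternatives were another offset, quantile normalization, median centring, a filter on dim probe sets, other handling of arrays and probe sets, no trend, the GAPDH ratio as a covariate, the number as a block, fits of 2 groups and leaving out each culture.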

Additional observations from a re-analysis of the deposited data

Results flagged for a closer look

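Of 50 groups of 4 cultures examined over the members that passed a test or were described by culture, 2 held a culture far from the other 3. Chance gives about 1 in 20. Atp5f1e, the epsilon subunit of the ATP synthase, had a log2 intensity of 12.14 in RA/Fsk 1, where the other RA/Fsk cultures lay between 11.46 and 11.51. Without RA/Fsk 1 the difference of Atp5f1e between RA/Fsk and FBS did not pass. Cox7a2l, the supercomplex factor, had 9.57 in RA/Fsk 3, and the other RA/Fsk cultures had 8.95 to 9.05. No difference of Cox7a2l that involves RA/Fsk passed.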

How the results depend on the processing

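Over 27 alternatives, the 27 genes that fell with FBS against LD became 15 with array 3r alone for FBS culture 3, 16 without the intensity trend and 12 with the GAPDH ratio as a covariate, and 14 to 28 when a culture was left out. The 1 that rose became 3 with quantile normalization, 2 with each array as its own sample, with the mean of all probe sets or with only the groups compared, 0 with the GAPDH ratio, and 1 to 2 without a culture. For RA/Fsk against LD, 2 fell with the dimmer probe sets left out, with each array as its own sample or with array 3 alone, 0 without the trend or with only the groups compared, and 0 to 4 without a culture; 3 rose with quantile normalization, and 0 to 1 without a culture. For RA/Fsk against FBS, 6 were higher with array 3r alone or without the trend, 17 with array 3 alone, 3 with the GAPDH ratio, 7 with the mean of all probe sets, and 7 to 12 without a culture. For FBS against HD, 23 were lower with median centring, 21 with each array as its own sample and 6 to 18 without a culture; 5 were higher with quantile normalization, 2 with each array as its own sample, with the replicate block or with only the groups compared, and 0 to 2 without a culture. For RA/Fsk against HD, 1 was lower with each array as its own sample or the mean of all probe sets, and 0 to 1 without a culture; 2 were higher with quantile normalization, 0 with array 3r alone, without the trend or with only the groups compared, and 0 to 1 without a culture. With quantile normalization the difference of FBS from LD turned to 0.31 for Cox4i1, 0.44 for Cox6a1 and 0.16 for Atp5f1b, and that from HD to 0.45 for Cox4i1, 0.46 for Cox6a1, 0.38 for Cox8a and 0.27 for Atp5f1b. The causes were not tested. With the replicate block, 21 genes fell and 1 rose for FBS against LD, and 1 fell and 1 rose for RA/Fsk against LD, which the pairing left as they were. Leaving out a culture removes degrees of freedom. Dim probe sets such as those of Cox8b and Cox6c-ps1, in the dimmer 50%, limit what could be seen.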
